A study of Mus musculus with 2 samples.

Results

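Transcripts of 8 genes for matricellular proteins, out of 27998 genes counted, were followed through the cell classes of mouse limb tendon at P7. They were chosen by name, with earlier results of these data known. They are Postn (periostin), Tnc (tenascin-C), Sparc (SPARC, or osteonectin), Spp1 (osteopontin) and the thrombospondin genes Thbs1, Thbs2, Thbs3 and Thbs4. All 8 had UMIs in both libraries. Cells had been released by enzymes from tendons of both forelimbs and hindlimbs without scraping off the tendon surface, so cells of the sheath around the tendon could enter the suspension. One library was labelled mutant and came from Tgfbr2;ScxCre pups, which carry 1 floxed and 1 null allele of the TGFβ type II receptor gene and a Cre expressed under Scx control, so that the receptor is removed from tendon cells and not from the whole limb. The other was labelled wild-type in its title and genotype, and Het in its description. Each was a single library of cells pooled from 2 pups, and mice of the study also carried the ScxGFP tendon reporter and the RosaT Cre reporter. The counts for Scx include those of ScxGFP.

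Matricellular proteins are secreted into the matrix but carry little load themselves. They bind collagens, fibronectin, proteases, growth factors and cell receptors such as integrins, CD44, CD36 and CD47, and many of them are made in quantity during development and after injury. Periostin helps collagen assembly and cross-linking, SPARC binds collagen and takes part in its secretion and deposition, and tenascin-C and osteopontin are ligands of integrins. Thrombospondins 1 and 2 form trimers, and thrombospondin 1 can activate latent TGFβ, whereas thrombospondins 3 and 4 form pentamers like their relative COMP.

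The library labelled wild-type held 2364 cells and 9451606 UMIs (median 3866.5 per cell), and the library labelled mutant held 2592 cells and 8250248 UMIs (median 2828). The libraries shared 2 cell barcodes. Scx-high cells (30 or more Scx UMIs per 10000) numbered 1154 and 228 in the wild-type and mutant library, Scx-low fibroblasts (5 or more UMIs over Ly6a, Cd34, Dpt, Lum and Col3a1) 723 and 1818, mural cells 140 and 83, and immune cells 191 and 191. Markers that no rule used were checked in each class: 5 tenocyte genes summed to 15329 and 9087 UMIs per 1000000 (CPM) in Scx-high cells against 1873 and 2096 CPM in Scx-low fibroblasts, 5 mural genes to 34167 and 22803 CPM in mural cells, and 5 immune genes to 14496 and 13151 CPM in immune cells. The 5 fibroblast genes, led by Dcn, separated the mesenchymal classes little in the wild-type library, with 14049 CPM in Scx-low fibroblasts and 13352 CPM in Scx-high cells, and more in the mutant library, with 12117 and 7581 CPM. Scx-high cells are a class set by a threshold on Scx. Of the 228 mutant Scx-high cells, 15 held at least 3 UMIs of muscle genes, against 0 of the 1154 wild-type cells, which by a floor of 3 counts allows a share of up to 0.260%. The 5 muscle genes summed to 450.2 CPM in the mutant and 0.416 CPM in the wild-type Scx-high class, and the mural genes to 1995 and 271 CPM. The part of the mural genes in the differences below was not tested. No cells were removed as doublets, and 101 wild-type and 39 mutant mural cells as well as 14 and 16 immune cells also met the rule of another class. Tgfbr2 had 146 UMIs (30.4 CPM) in wild-type and 49 UMIs (47.0 CPM) in mutant Scx-high cells. A count of 3′ ends need not lie in the deleted part of the gene, so it does not check the labels, and each direction below rests on them. Scx-high cells made up 48.8% of the wild-type and 8.80% of the mutant cells. With 1 library per label no test was possible, p-values are not given, and label and library cannot be told apart. All intervals are 95% intervals, exact, and cover counting error only.

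The members lie on 7 chromosomes of GRCm38, in the GENCODE M21 annotation. Postn (ENSMUSG00000027750) spans chr3:54361109-54391037 and Thbs3 (ENSMUSG00000028047) chr3:89215180-89226837, both on the plus strand. Spp1 (ENSMUSG00000029304) spans chr5:104435118-104441050 and Thbs1 (ENSMUSG00000040152) chr2:118111876-118127133, also on the plus strand. Tnc (ENSMUSG00000028364) at chr4:63959785-64047015, Sparc (ENSMUSG00000018593) at chr11:55394500-55423183, Thbs2 (ENSMUSG00000023885) at chr17:14665500-14694235 and Thbs4 (ENSMUSG00000021702) at chr13:92751590-92794818 are on the minus strand. Exons of Thbs1, Thbs3 and Tnc overlap a gene on the opposite strand (Gm29233, Mtx1 and 8030451A03Rik), and those of Spp1 overlap Gm42793 on the same strand. Whether reads were counted by strand is not given in the sources used here.

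Postn and Spp1 were the members whose level was at least 2-fold higher in the mutant library in both mesenchymal classes (below), and the 250 bases before the start nearest to their annotated gene start are therefore shown, from RefSeq on GRCm38.p6, plus strand, 5′ to 3′. Capitals mark the TATA-type sequence TATAAA, the RUNX-type sequence AACCACA and the SMAD-type sequence CAGAC, wherever they lie in the window. Each was searched on both strands, and the last reads GTCTG where it lies on the other strand.
Postn, chr3:54360857-54361106: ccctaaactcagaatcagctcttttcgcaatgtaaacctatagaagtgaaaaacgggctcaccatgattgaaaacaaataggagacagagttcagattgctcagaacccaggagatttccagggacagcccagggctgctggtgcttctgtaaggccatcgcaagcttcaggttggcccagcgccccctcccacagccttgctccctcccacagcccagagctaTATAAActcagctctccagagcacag
Spp1, chr5:104434861-104435110: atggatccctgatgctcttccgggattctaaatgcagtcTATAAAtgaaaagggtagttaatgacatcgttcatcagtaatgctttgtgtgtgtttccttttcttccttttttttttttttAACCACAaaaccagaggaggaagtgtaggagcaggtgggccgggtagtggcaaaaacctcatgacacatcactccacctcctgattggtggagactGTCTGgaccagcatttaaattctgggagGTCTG
The Postn window shown had TATAAA starting 26 bases before the start and neither of the other sequences. The Spp1 window shown had TATAAA 211 bases before the start, AACCACA 129 bases before it and CAGAC on the other strand at 33 and 5 bases. RefSeq gives each of these genes a second start, and neither of those windows held TATAAA or AACCACA, while both held CAGAC, 191 bases before the start in Postn and 41 in Spp1. Over all 32851 RefSeq windows of the same length, 12.4% held TATAAA, 4.40% AACCACA and 42.2% CAGAC. Of the 7 members with a window, 4 held TATAAA in at least 1 of their windows, 1 held AACCACA and 6 held CAGAC. Counted by window, as the shares above are, 5 of their 10 windows held TATAAA, 1 AACCACA and 7 CAGAC. The windows of Tnc overlap and share their TATAAA. The sequence bound by AP-1, TGANTCA, was in none of the 10 windows of the members and in 6.75% of all windows. These matches are letters only, and no binding was measured.

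The first comparison asked how the members differed between libraries among cells with high Scx. Postn and Spp1 were many times higher in mutant than in wild-type Scx-high cells, Thbs1 was about 4-fold higher and Sparc about 3-fold lower, while Tnc, Thbs2, Thbs3 and Thbs4 stayed within 2-fold. Of the 8 members, all of which passed the filter of a mean of at least 10 CPM, 3 were at least 2-fold higher, beside 13.0% of the 7035 genes that passed. Only Sparc was at least 2-fold lower, beside 4.34% of these genes. The members' median log2 ratio was 0.60, and that of all tested genes was 0.32.

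Postn had 788 UMIs in 1154 wild-type Scx-high cells (164 CPM) and 3571 UMIs in 228 mutant cells (3428 CPM). The ratio was 20.9 (19.3 to 22.6), the 47th highest of the genes tested. Spp1 had 25 UMIs in the wild-type cells (5.20 CPM) and 857 in the mutant cells (823 CPM). Few wild-type transcripts lie behind its ratio of 158 (106 to 246), which was the 15th highest and moved to 268 when high Scx meant at least 60 per 10000. Thbs1 was at 73.1 CPM in the wild-type and 299 CPM in the mutant cells, a ratio of 4.10 (3.51 to 4.79). Sparc went the other way. It had 265782 UMIs in wild-type cells (55317 CPM, or a median of 214 UMIs per cell) and 18622 in mutant cells (17874 CPM, a median of 70 UMIs per cell), and was 3.09-fold lower (3.05 to 3.14).

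Among the members within 2-fold, Thbs4, the thrombospondin best known from tendon and muscle attachments, was at 1152 CPM in wild-type and 1813 CPM in mutant Scx-high cells, a ratio of 1.57 (1.49 to 1.66). Thbs2 was at 473 and 682 CPM (ratio 1.44, 1.32 to 1.57) and Tnc at 297 and 434 CPM (ratio 1.46, 1.31 to 1.62). Thbs3 was at 210.2 and 149 CPM, which made it 1.41-fold lower (1.19 to 1.68) in the mutant cells. Divided by the median ratio of all tested genes, 1.25, the ratios of Tnc, Thbs2 and Thbs4 came to 1.17, 1.15 and 1.26, and that of Thbs3 to 0.566. Those of Postn, Spp1, Thbs1 and Sparc came to 16.7, 126, 3.28 and 0.258. Without the cells with muscle genes, an alternative chosen after the data were seen, the ratio of Postn was 22.1, of Spp1 167, of Thbs1 4.32 and of Sparc 0.339. The share of cells with the cartilage collagen gene Col2a1 also differed between the classes, with 3 or more UMIs in 704 of 1154 wild-type and 13 of 228 mutant cells. Among cells with none, the ratios were smaller for Postn (5.32), Spp1 (25.1) and Thbs1 (1.87), and Thbs1 was no longer 2-fold apart. Among cells with 3 or more, of which the mutant class had 13, they were larger for Postn (32.6) and Spp1 (256). Thbs1 was at 2.34 there.

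**Figure D1:**
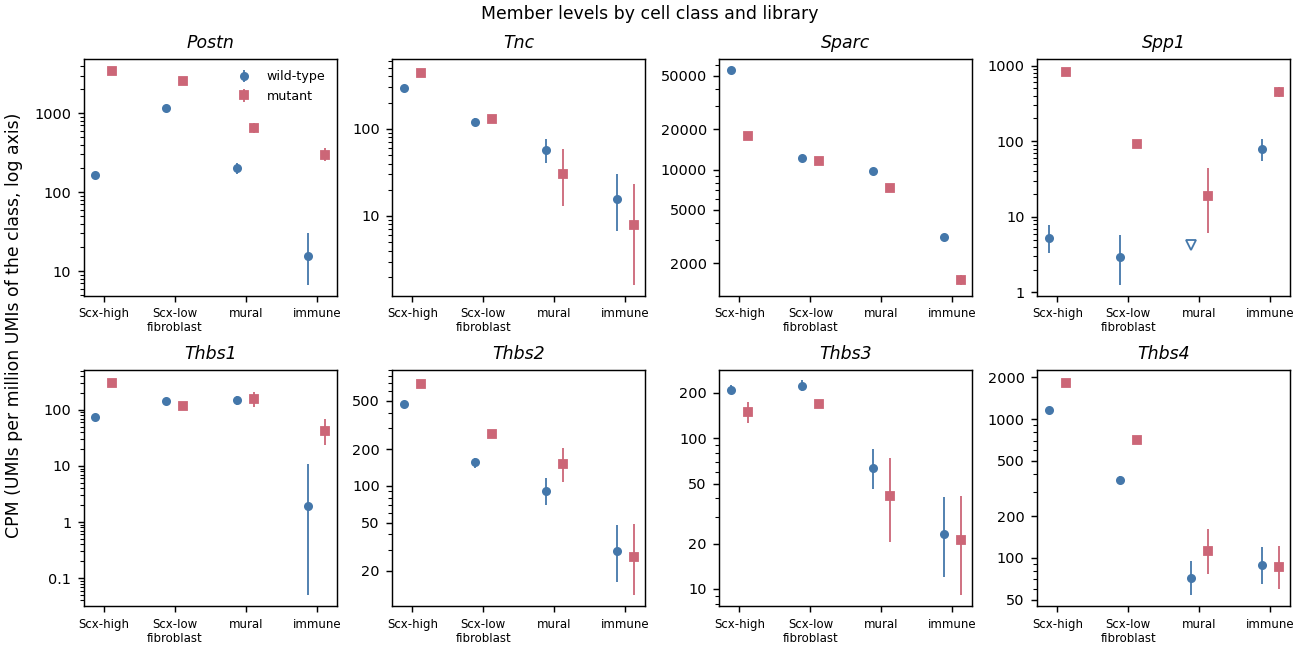
Level of each member (CPM, log axis) in 4 cell classes of the wild-type (circles) and mutant (squares) library, with bars for the 95% counting interval of 1 library each. The open triangle marks Spp1 in wild-type mural cells, which had 0 UMIs, at the level of 3 UMIs. Sparc in wild-type Scx-high cells, at 55317 CPM, stands above its other classes, and Spp1 in mutant Scx-high cells, at 823 CPM, stands above its wild-type level of 5.20 CPM.

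The second comparison was the same between Scx-low fibroblasts, the class that held 70.1% of the mutant and 30.6% of the wild-type cells. The class is set by a rule and need not hold the same kinds of cells in both libraries. Of its cells, 441 of 1818 mutant and 141 of 723 wild-type ones had 3 or more Tnmd UMIs. A different mix of cells and a difference within a kind of cell cannot be told apart in these ratios. Spp1 and Postn were again higher in the mutant library and Thbs4 and Thbs2 were higher but under 2-fold, while Sparc and Tnc differed little in CPM. Of the 8 members, 2 were at least 2-fold higher, beside 3.10% of the 7703 genes tested, and 0 were at least 2-fold lower, beside 4.18%. Their median log2 ratio was 0.45, and that of all tested genes was -0.04.

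Spp1 had 8 UMIs in wild-type fibroblasts (2.93 CPM) and 512 in mutant fibroblasts (90.5 CPM), a ratio of 30.9 (15.6 to 72.0). Over the alternatives tried its ratio lay between 16.0 and 43.4. Postn was at 1148 CPM in the wild-type and 2560.2 CPM in the mutant fibroblasts, a ratio of 2.23 (2.15 to 2.32), which was 1.99 when each cell had equal weight. The wild-type fibroblasts stood above wild-type Scx-high cells, in which Postn was 7.00-fold lower (6.47 to 7.58). Thbs4 was at 366 and 705 CPM, a ratio of 1.93 (1.80 to 2.07). That ratio was 1.39 when each cell had equal weight and 3.71 when Col3a1 was left out of the fibroblast rule. Among fibroblasts with 3 or more Tnmd UMIs, Thbs4 was lower in the mutant library, at 1317 CPM in wild-type and 1158 CPM in mutant cells. Thbs2 was at 156 and 268 CPM (ratio 1.72, 1.54 to 1.92, or 1.40 when each cell had equal weight).

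Sparc was at 12103 and 11636 CPM in the fibroblasts, a ratio of 0.961 (0.949 to 0.974), against 0.323 in Scx-high cells. Tnc was at 119.7 and 129 CPM, a ratio of 1.08 (0.946 to 1.23). Over the alternatives it lay between 0.794 and 1.49, so the CPM of Tnc has no settled direction. Thbs1 was at 145 and 115 CPM, which is 1.26-fold lower in the mutant fibroblasts (1.11 to 1.42), whereas it was higher in the mutant Scx-high cells. Thbs3 was at 223 and 169 CPM, 1.32-fold lower (1.19 to 1.47), close to its ratio in Scx-high cells. The difference between the classes was not tested for any member.

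**Figure D2:**
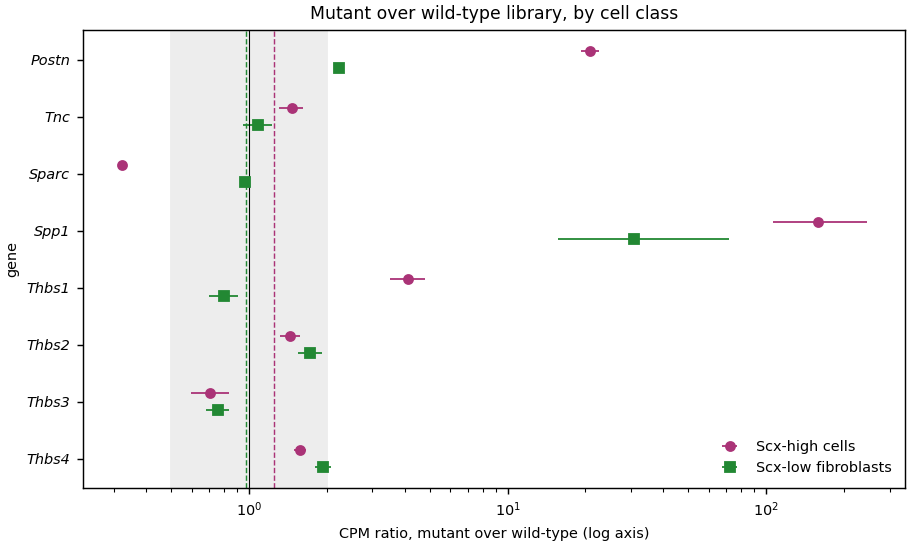
Ratio of CPM, mutant over wild-type (log axis), of each member in Scx-high cells (circles) and Scx-low fibroblasts (squares), with 95% counting intervals. The grey band is the range within 2-fold and dashed lines are the median of all tested genes in each class. Spp1 stood at 158 and 30.9 and Postn at 20.9 and 2.23, while Thbs1 stood at 4.10 and 0.796, on opposite sides of 1.

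Within the wild-type library, where both classes came from the same suspension, Sparc, Thbs4, Thbs2 and Tnc were higher in Scx-high cells and Postn was higher in Scx-low fibroblasts. Of the 7 members that passed the filter, 4 were at least 2-fold higher in Scx-high cells, beside 4.41% of the 7348 genes tested. Postn was the 1 member at least 2-fold lower, beside 18.4%. Spp1, with 25 and 8 UMIs, did not pass. The members' median log2 ratio was 1.31 and that of all tested genes was -0.45. Sparc was 4.57-fold higher in Scx-high cells (4.52 to 4.62), Thbs4 3.15-fold (2.94 to 3.37), Thbs2 3.04-fold (2.74 to 3.38) and Tnc 2.48-fold (2.20 to 2.81). With Col3a1 out of the fibroblast rule, Thbs4 was 6.22-fold and Tnc 3.97-fold higher. When high Scx meant at least 60 per 10000, they were 2.61-fold and 2.05-fold higher. Thbs1 was 1.98-fold lower in Scx-high cells (1.71 to 2.30). Thbs3 was at 210.2 and 223 CPM in the 2 classes, a ratio of 0.942 (0.851 to 1.04) that turned to 1.29 when divided by the median ratio.

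Within the mutant library, the order of the classes differed for Postn and Thbs1. Postn was at 3428 CPM in Scx-high cells and 2560.2 CPM in Scx-low fibroblasts, a ratio of 1.34 (1.29 to 1.39), and Thbs1 at 299 and 115 CPM, a ratio of 2.59 (2.26 to 2.97). Of the 8 members, 5 were at least 2-fold higher in Scx-high cells, beside 5.76% of the 7497 genes tested, and 0 were at least 2-fold lower, beside 8.47%. Their median log2 ratio was 1.36, with -0.06 for all tested genes. Spp1 was 9.09-fold higher in Scx-high cells (8.14 to 10.2), Tnc 3.36-fold (2.98 to 3.78), Thbs4 2.57-fold (2.43 to 2.72) and Thbs2 2.55-fold (2.33 to 2.79). Tnc, Thbs2 and Thbs4 were thus higher in Scx-high cells than in fibroblasts of both libraries. Sparc, 4.57-fold higher in the wild-type library, was 1.54-fold higher (1.51 to 1.56) in the mutant library. Thbs3 was at 149 and 169 CPM, a ratio of 0.881 (0.739 to 1.05).

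Mutant Scx-low fibroblasts were also set against wild-type Scx-high cells, the largest class of each library, since the study compared mutant cells that had lost tendon markers with wild-type tenocytes. The fibroblast class is not the same as the study's mutant cells. Of its 1818 mutant cells 441 had 3 or more Tnmd UMIs, and the wild-type library held 723 cells of the class. These ratios share their cells with the comparisons above, and they hold a difference between classes as well as between libraries. Of the 8 members, 2 were at least 2-fold higher in the mutant fibroblasts, beside 17.6% of the 7318 genes tested, and 2 were at least 2-fold lower, beside 5.41%. Postn was 15.6-fold higher (14.5 to 16.8) and Spp1 17.4-fold higher (11.6 to 27.1). Sparc was 4.75-fold lower (4.71 to 4.79) and Tnc 2.30-fold lower (2.10 to 2.52). Thbs4 and Thbs2, 1.64-fold and 1.77-fold lower, were more than 2-fold lower once divided by the median ratio of 1.31, at ratios of 0.466 and 0.431. The members' median log2 ratio was -0.51, against 0.39 for all tested genes.

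Along the Scx level of the mesenchymal cells (Scx-high cells and Scx-low fibroblasts in 5 bins of Scx per 10000), the libraries differed in the course of Postn and Sparc. In wild-type cells Postn went from 1010.1 CPM under 5 Scx and 1487 CPM from 5 to 30, to 390.1, 157 and 109 CPM in the 3 bins above. In mutant cells it was at 2519, 2944, 3165, 2857 and 4215 CPM, high in every bin. Sparc in wild-type cells went from 11349 CPM in the lowest bin to 13964, 38076, 55830.1 and 59586 CPM. In mutant cells it stayed between 11289 and 19256 CPM, and both libraries had near-equal levels under 5 Scx.

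Spp1 in mutant cells was at 89.1, 103, 155, 799 and 1479.8 CPM from the lowest to the highest bin, with its highest levels in the bins from 100 Scx per 10000. In wild-type cells Spp1 had between 2 and 9 UMIs in each bin, too few to show a course. Thbs4 in wild-type cells was lowest, 212 CPM, under 5 Scx and highest, 1470.4 CPM, from 30 to 100. In the mutant library it was at 582 CPM in the lowest bin and between 1375 and 2141 CPM in the others. Thbs2 was lowest under 5 Scx in both libraries, at 134 and 243 CPM, reached 496 CPM in wild-type and 772 CPM in mutant cells, and stood higher in the mutant cells of each bin, with overlapping intervals from 30 to 100. Thbs3 stayed between 182 and 267 CPM in wild-type and between 147 and 181 CPM in mutant cells. Thbs1 was higher in wild-type than in mutant cells under 5 Scx, at 153 and 98.0 CPM, and lower in the other 4 bins, at 104 and 408 CPM in the highest. Tnc was higher in wild-type cells only from 30 to 100 Scx, at 438 and 295 CPM, and at 260.0 and 566 CPM in the highest bin. The smallest bin held 64 cells, and the depth differed along the bins of the mutant library, from a median of 2861 UMIs per cell in the lowest to 5961 in the highest.

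**Figure D3:**
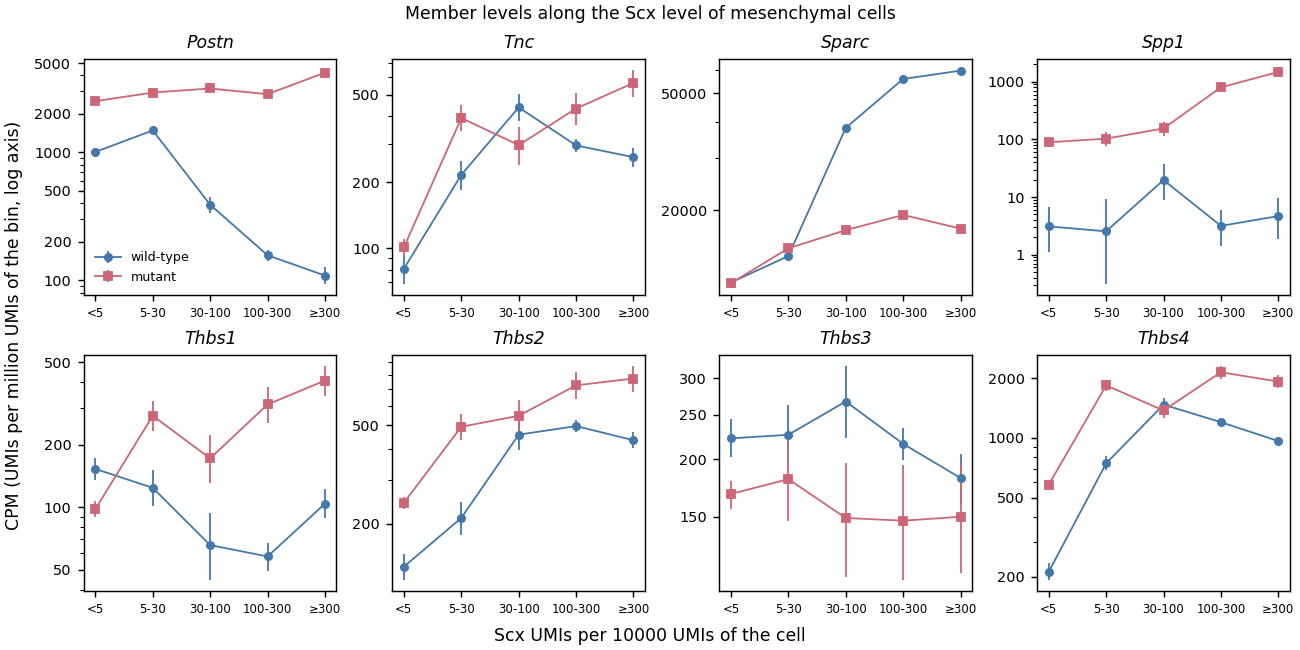
Level of each member (CPM, log axis) in mesenchymal cells grouped by Scx UMIs per 10000 UMIs of the cell, in the wild-type (circles) and mutant (squares) library, with 95% counting intervals. Postn went down to 109 CPM in wild-type cells of the highest bin and was at 4215 CPM in mutant cells, and Sparc reached 59586 CPM in wild-type cells and no more than 19256 CPM in mutant cells.

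The share of cells with a UMI shows how widely a member was detected. After each cell was thinned to 1500 UMIs and shallower cells were left out, 1070 wild-type and 209 mutant Scx-high cells and 682 and 1652 fibroblasts remained (84, 19, 41 and 166 left out). Postn was found in 10.9% (9.13 to 13.0) of wild-type and 73.7% (67.2 to 79.5) of mutant Scx-high cells. In fibroblasts it was in 49.3% (45.5 to 53.1) of wild-type and 73.3% (71.1 to 75.4) of mutant cells. Without thinning the Postn shares were 19.5% and 78.9% in Scx-high cells and 62.0% and 81.6% in fibroblasts. In haemoglobin-rich cells, which should lack these genes and had median depths of 5682 and 4451 UMIs, thinned Postn shares were 0% of 77 wild-type cells, which by the floor of 3 counts allows up to 3.90%, and 4.23% of 71 mutant cells.

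Spp1 was found in 0.374% (0.102 to 0.954) of thinned wild-type and 18.7% (13.6 to 24.6) of thinned mutant Scx-high cells, and in 0.147% and 4.18% of the fibroblasts. Unthinned, its shares were 1.04% and 30.3% in Scx-high cells and 0.692% and 5.67% in fibroblasts. Haemoglobin-rich cells had 0 Spp1 UMIs in both libraries. Spp1 was concentrated: the 10% of mutant Scx-high cells with the most of it held 85.5% of its UMIs, up to 94 in 1 cell, and the median cell had 0. For Postn, the top 10% of cells held 86.2% of the UMIs in wild-type but 34.8% in mutant Scx-high cells.

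Thbs1 was found in 9.63% (7.93 to 11.6) of thinned wild-type and 24.9% (19.2 to 31.3) of thinned mutant Scx-high cells. Tnc, Thbs2, Thbs3 and Thbs4 had overlapping intervals there, with Thbs4 in 75.4% and 72.7% and Tnc in 33.9% and 27.3% of the cells. Tnc was thus higher in CPM and lower in its share in the mutant class, and the 10% of cells with the most Tnc held 40.4% of its UMIs in wild-type and 56.6% in mutant Scx-high cells. No order is read from its share. In fibroblasts Thbs4 was in 24.6% (21.4 to 28.0) of wild-type and 37.9% (35.5 to 40.3) of mutant cells. Sparc was found in each of the 1070 thinned wild-type Scx-high cells and in 98.6% of the thinned mutant ones. It was also found in 27.3% of the wild-type and 12.7% of the mutant haemoglobin-rich cells, so the Sparc share carries background. Whether that background came from free RNA or from doublets was not tested.

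**Figure D4:**
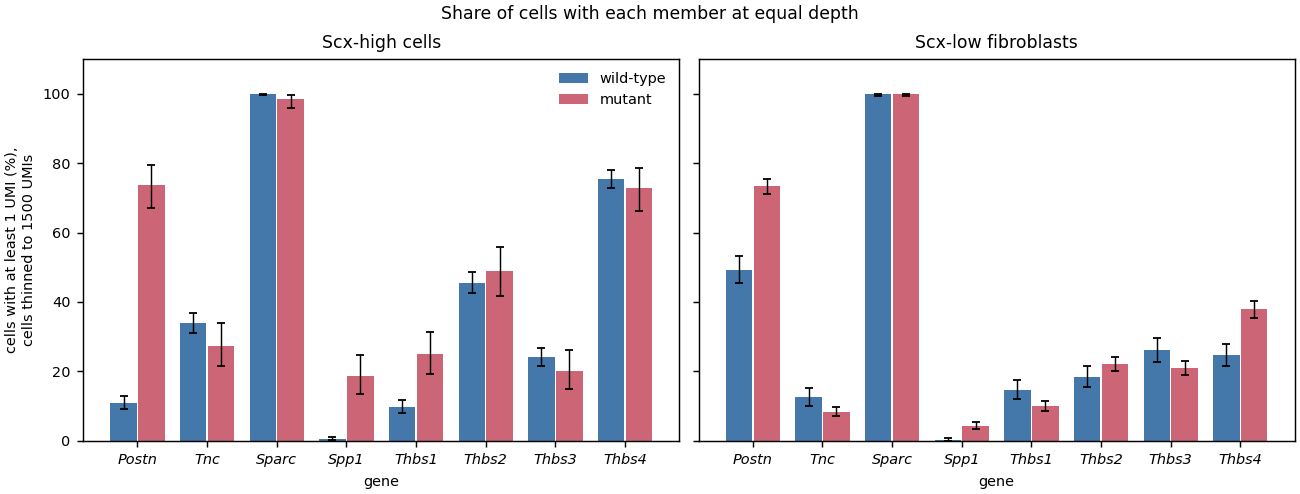
Share of cells (%) with at least 1 UMI of each member after thinning to 1500 UMIs per cell, in Scx-high cells (left) and Scx-low fibroblasts (right) of the wild-type and mutant library, with exact 95% binomial intervals. The Postn bars stand at 10.9% and 73.7% in Scx-high cells and at 49.3% and 73.3% in fibroblasts, while the Thbs4 bars in Scx-high cells, 75.4% and 72.7%, overlap in their intervals.

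In mural cells, the smooth muscle cells and pericytes of vessels, Postn was at 201 CPM in the wild-type and 650.0 CPM in the mutant library, a ratio of 3.24 (2.58 to 4.07). Among the 39 wild-type and 44 mutant mural cells that met no other rule, a choice made after the data were seen, Postn was at 183 and 336 CPM (ratio 1.84, 1.06 to 3.24). Over all mural cells, Sparc was at 9782 and 7319 CPM, 1.34-fold lower (1.27 to 1.41), and Thbs1 at 148 and 154 CPM, a ratio of 1.04. Spp1 had 0 UMIs in all wild-type and 5 in all mutant mural cells. In those that met no other rule, Sparc was 1.13-fold lower (1.01 to 1.26). Thbs1 had 9 and 15 UMIs in them, a ratio of 1.90 (0.780 to 4.93).

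In immune cells Spp1, which macrophages are known to make, was at 77.7 CPM (40 UMIs) in the wild-type and 454 CPM (173 UMIs) in the mutant library, a ratio of 5.84 (4.12 to 8.46). In the 177 wild-type and 175 mutant immune cells that met no other rule it was at 58.2 and 487 CPM, a ratio of 8.38 (5.55 to 13.1). The immune class held 54.8% of all Spp1 UMIs of the wild-type library and 10.7% of those of the mutant library, where Scx-high cells held 52.8% and fibroblasts 31.5%. Postn was at 15.5 CPM in wild-type and 299 CPM in mutant immune cells, a ratio of 19.2 (9.44 to 45.6). Without the cells that met another rule Postn had 8 and 5 UMIs, 17.2 and 15.1 CPM, so its immune difference lay in cells that also carried genes of another class. Thbs1 had 1 and 16 UMIs in all immune cells. Sparc had a median of 2 UMIs per wild-type and 0 per mutant immune cell, with up to 330 and 105 in single cells.

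Splits of the 2 mesenchymal classes by other genes showed which of their cells carried the members. Among Scx-low fibroblasts, those with 3 or more UMIs of Tnmd, a tendon membrane protein gene, had more Thbs4 than those with none, 1317 against 144 CPM in the wild-type and 1158 against 508 CPM in the mutant library. The Tnmd-positive fibroblasts also had more Postn, 1898 against 934 CPM and 3268 against 2192 CPM. The share of cells with Postn, without thinning, was lower in them in the wild-type library, 57.4% against 62.4%. In the mutant library it was higher, 86.4% against 79.3%. Fibroblasts with Pi16, a marker of fibroblasts around vessels, had 161 CPM of Thbs4 in the wild-type and 674 CPM in the mutant library. Those without Pi16 had 539.5 and 714 CPM. Within each split Postn and Thbs2 were higher in the mutant library.

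Among Scx-high cells, those with 3 or more UMIs of Col2a1, the collagen gene of cartilage and of tendon near bone, numbered 704 of the wild-type cells but 13 of the mutant ones. Wild-type cells without Col2a1, 123 in number, had 634 CPM of Postn against 80.2 CPM in those with it, and 40022 CPM of Sparc against 58328 CPM. In mutant cells without Col2a1, 160 in number, Postn was at 3372 CPM and Sparc at 15045 CPM. The wild-type cells without Col2a1 were shallower, with a median of 2757 UMIs against 4812 in those with it. Mutant cells without it had a median of 4223 UMIs, and the part of depth in the Col2a1 split was not tested. Among the cells without Col2a1 the ratio of mutant over wild-type was thus smaller than in the whole class for Postn, at 5.32 (4.66 to 6.09), while Sparc was 2.66-fold lower (2.60 to 2.73). Spp1 was at 36.5 and 917 CPM, a ratio of 25.1 (14.9 to 46.2), and Thbs1 at 151 and 283 CPM, a ratio of 1.87 (1.39 to 2.55) that is under 2-fold. Tnc, at 1.07, and Thbs4, at 1.16, were closer to 1 than in the whole class, while Thbs2, at 1.49, and Thbs3, at 0.665, were not. Among the 13 mutant and 704 wild-type cells with 3 or more Col2a1 UMIs, the ratio of Postn was 32.6 (26.5 to 40.1). That of Spp1 was 256 (70.2 to 1398), from 13 and 3 UMIs, and both were above the whole class. Thbs1 was at 2.34 (0.995 to 4.69) in these cells, and Sparc was 1.87-fold lower (1.78 to 1.96). The ratios on both sides of the Col2a1 split were computed after the data were seen. Cycling mesenchymal cells (2 or more UMIs of 5 cell cycle genes) had 491 CPM of Spp1 in the mutant library and those with no such UMI 166 CPM, with median depths of 4313 and 2862 UMIs. Both mesenchymal classes are pooled here, and the cycling cells also had more Scx, 7392 against 4174 CPM. The part of class and depth in the cycling split was not tested. The 69 mutant Scx-high cells with Spp1 had 3746 CPM of Postn and 393 CPM of Thbs1, and the 159 without it 3227 and 241 CPM. The cells with Spp1 were also deeper, with a median of 5805 against 3505 UMIs, and had more Scx, 38696 against 21268 CPM. The part of depth and of the Scx level in this split was not tested.

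Of 22 related matricellular genes on a list (the periostin relative Tgfbi, tenascins, SPARC family, osteopontin relatives, Comp, CCN proteins and spondins), 15 passed the filter in Scx-high cells, 6 of them at least 2-fold higher in the mutant library (13.0% of all tested genes) and 0 at least 2-fold lower (4.34%). Their median log2 ratio was -0.01, under the 0.32 of all tested genes. Spon1, a secreted spondin of the matrix, had 4 UMIs in wild-type and 52 in mutant Scx-high cells (0.833 and 49.9 CPM), with an interval of the ratio from 22.1 to 228. Tnn, tenascin-W, had 0 UMIs in wild-type and 53 in mutant Scx-high cells (50.9 CPM), which is 81.5-fold above a floor of 3 UMIs in the wild-type class and at least 64.0-fold higher by the exact interval. Tgfbi, the periostin relative, was at 598 and 415 CPM (ratio 0.693, 0.625 to 0.768) and Comp at 586 and 383 CPM (ratio 0.654, 0.587 to 0.726). Among the CCN genes Ctgf, a well known TGFβ-responsive gene, was at 42.2 and 91.2 CPM (ratio 2.16, 1.67 to 2.77, or 1.73 divided by the median ratio) and Cyr61 at 893 and 878 CPM (ratio 0.984, 0.915 to 1.06).

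In Scx-low fibroblasts 14 of the 22 genes passed, with 3 at least 2-fold higher (3.10% of all tested genes) and 2 at least 2-fold lower (4.18%) in the mutant library. Their median log2 ratio was 0.39, with -0.04 for all tested genes. Spon1 and the CCN gene Wisp2 were higher, at 8.42 and 53.9 CPM (ratio 6.40, 4.19 to 10.3) and at 10.2 and 65.2 CPM (ratio 6.37, 4.33 to 9.71). Tnxb, a tenascin of the loose connective tissue, was 3.05-fold lower (2.78 to 3.34), and Nov, another CCN gene, was 2.78-fold lower (2.51 to 3.08).

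Of 14 receptor genes, 8 passed in Scx-high cells, and Itgav, the integrin subunit that pairs to bind periostin and osteopontin, was the 1 at least 2-fold higher in the mutant library (25.2 and 50.9 CPM, ratio 2.02, 1.43 to 2.81). That count of 1 in 8 is near the 13.0% of all tested genes, and divided by the median ratio Itgav came to 1.61, under 2-fold. Cd44, the hyaluronan and osteopontin receptor, was at 37.0 and 65.3 CPM there (ratio 1.76, 1.31 to 2.34). In fibroblasts 10 receptor genes passed, 0 at least 2-fold higher (3.10% of all tested genes) and 3 at least 2-fold lower (4.18%). These were Cd44, at 244 and 111 CPM (2.21-fold lower, 1.98 to 2.47), Itgb3, at 36.2 and 7.07 CPM (5.12-fold lower, 3.52 to 7.60) and Itga9, at 20.9 and 7.42 CPM (2.81-fold lower, 1.85 to 4.29). Of 6 matrix partners in Scx-high cells, 3 were at least 2-fold higher in the mutant library and 2 at least 2-fold lower, where all tested genes gave 13.0% and 4.34%. The higher ones were Fn1, at 485 and 2992 CPM (ratio 6.17, 5.85 to 6.52), Col5a1, at 52.4 and 819 CPM (ratio 15.6, 13.5 to 18.0), and Col3a1, at 535 and 4576 CPM (ratio 8.56, 8.16 to 8.98). Col3a1 is also 1 of the 5 genes of the fibroblast rule. Col1a1, the main tendon collagen, was 3.56-fold lower (3.51 to 3.61), and Bmp1, the procollagen protease, was 2.46-fold lower (1.90 to 3.23). In fibroblasts 1 of these 6 genes was at least 2-fold higher (3.10% of all tested genes) and 0 at least 2-fold lower (4.18%) in the mutant library. It was Lox, the collagen cross-linking enzyme, at 110.1 CPM in the wild-type and 259 CPM in the mutant library (ratio 2.35, 2.08 to 2.67).

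The genes whose profile over 11 sets of cells (each class of each library with at least 50 cells) was most like that of a member are given as a description, since the sets share libraries and depth. Among 2516 genes compared, Thbs4 was most like Comp (Pearson r = 0.973 of log2(CPM + 10)), its pentameric relative, then Timp1 (0.970) and Gja1 (0.968). Thbs2 was most like Lox (0.989), Slc35a2 (0.985) and C1qtnf6 (0.974). Tnc was most like Ptgis (0.981), Fndc1 (0.975) and Ogn (0.974), and Thbs3 like Ogn (0.971), Serpinf1 (0.970) and Mfap4 (0.964). Thbs1 was most like Col5a2 (0.938), a fibrillar collagen gene, then Fstl1 (0.935) and Oaf (0.931). Sparc was most like Rcn3 (0.991), a protein of the secretory pathway, then Copz2 (0.989) and Vkorc1 (0.987). Postn was most like Tnfaip6 (0.939), a hyaluronan-binding matrix protein, and Socs2 (0.931) was also among the closest. Spp1 had no close match, with 0.780 for Pmepa1, a TGFβ-responsive gene, as the highest and 0.771 for Ctsh.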

How the data were processed

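Cells were captured with the Chromium Single Cell 3′ system and sequenced on a NextSeq. The authors deposited filtered matrices of UMI counts per gene and cell, not normalized, made with Cell Ranger 1.2.0 according to the submitters' processing notes (the study's methods name a later version) on mm10. Each cell was put in a class by rules on marker UMIs, other cell types first, then Scx-high, then Scx-low fibroblasts. No cells were removed as doublets, since class rules that overlap were counted instead. UMIs were summed per class and library and divided by the class total, times 1000000 (CPM). A gene passed when the mean CPM of both sides was at least 10 and was counted as apart from 2-fold. Ratios have exact conditional intervals and shares Clopper-Pearson intervals, at 95%. Thinning drew 1500 UMIs per cell with seed 1. Named genes were the 8 members, examples from the related lists, chosen after their values were seen, and for each member up to 3 genes with the most similar profile, of which some are not reported here. Members and lists were chosen with earlier results of these data known. Python 3.11.15, NumPy 2.4.6, SciPy 1.17.1, pandas 2.3.3 and matplotlib 3.10.9 were used, and the scripts were tested on simulated data. Positions are from GENCODE M21 and promoters from RefSeq.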

Additional observations from a re-analysis of the deposited data

Results flagged for a closer look

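Thbs1 lay on opposite sides of 1 between classes: mutant over wild-type, its ratio was 4.10 in Scx-high cells and 0.796 in Scx-low fibroblasts. Scx-high cells over Scx-low fibroblasts gave Thbs1 a ratio of 0.504 among wild-type cells and 2.59 among mutant cells. The same ratio of Postn was 0.143 among wild-type cells and 1.34 among mutant cells. Each was singled out because the direction differed between classes or libraries. None of these differences was tested, since each library is 1 sample, and the pairs share the same 4 sets of cells.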

How the results depend on the processing

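Of 560 ratios of members recomputed under other settings, 443 stayed within the counting interval, 117 lay outside it and 0 turned to the other side of 1 among those at least 2-fold apart. Of 74 counts of members, at least 2-fold apart in either direction or with a higher share of cells in the mutant library, 72 stayed within 1.5 times. The exceptions were in Scx-low fibroblasts, mutant over wild-type, where the count of 2 became 1 when each cell had equal weight (Postn at 1.99) and became 1 when a mean of at least 50 CPM was required, which Spp1 did not reach. Taken by direction, other counts moved too. In mutant Scx-low fibroblasts over wild-type Scx-high cells, division by the median ratio took Thbs2 (0.431) and Thbs4 (0.466) beyond 2-fold lower. In wild-type Scx-high cells over fibroblasts, Thbs1 came to 0.470 with Col3a1 out of the fibroblast rule. The same setting took Thbs4 beyond 2-fold higher, to 3.71, in Scx-low fibroblasts, mutant over wild-type. Keeping Scx-high cells with no Col2a1 UMI took Thbs1 to 1.87, Postn to 5.32 and Spp1 to 25.1. Keeping those with 3 or more, 13 in the mutant library, took Thbs1 to 2.34, Postn to 32.6 and Spp1 to 256. Ratios within the Col2a1 split and without cells with muscle genes were computed after the data were seen. So were those without immune and mural cells that met 2 or more rules. Leaving out a replicate was not possible with 1 library per label. No paired analysis was possible because each label has 1 library. Depth limits Spp1 most, with 25 and 8 UMIs in the wild-type mesenchymal classes.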
